A study of Mus musculus with 2 samples.

Results

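The genes described here are 10 targets of the transcription factor p53 on the side of cell death: Bax, Bbc3, Pmaip1, Fas, Tnfrsf10b, Eda2r, Aen, Phlda3, Perp and Ei24. They were taken as a list of names and matched by gene symbol to the count files, and all 10 were found among the 32285 genes listed. Their unique molecular identifiers (UMIs, counts of distinct RNA molecules) were summed over the cells of each cell type and library. The retinal pigment epithelium (RPE), the pigmented cell layer behind the photoreceptors, was examined in most depth.

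Cells of the RPE, choroid and sclera were profiled by 5′ single-cell RNA sequencing on a droplet platform. The control library came from C57BL/6J male mice that received 1 µl of PBS under the retina, and the Dox library from mice of the same strain, sex and age that received the same volume of doxorubicin at 100 ng/µl. Doxorubicin is an anthracycline that damages DNA. In both groups the mice were 3 months old, eyes were taken 7 days after the injection, and 10 eyes of 5 mice were pooled into 1 library. Neither group was left without an injection, and with pooled animals and 1 library per condition no spread between animals can be measured. For that reason no test was run, and every 95% interval below covers counting error only.

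The files held 20381 control and 15649 Dox barcodes, of which 20180 and 15426 passed the limits on UMIs, genes and mitochondrial share, with medians of 4495 and 4995 UMIs per cell. The libraries shared 441 barcodes, and leaving these out gave the same counts of genes past 1.5-fold up in the comparisons of all, Serpina3n-high and other RPE cells, in fibroblast-like cells and within the Dox library, and 4 in place of 5 within control. A kept cell with at least 10 UMIs of Rpe65, the visual-cycle isomerase of the RPE, was called an RPE cell, which gave 1526 control and 1630 Dox cells. RPE cells were also split by Serpina3n, a secreted serine protease inhibitor, at 1000 CPM in the cell, where CPM is the usual scaling of a gene's UMIs by the total UMIs of the cell or group. Cells at or above that level are called Serpina3n-high. They were 15 of the control RPE cells, or 0.983% (Clopper-Pearson 0.551 to 1.62), and 208 of the Dox RPE cells, or 12.8% (11.2 to 14.5). The other 1511 control and 1422 Dox cells are called other RPE cells. The split used Serpina3n alone, and no count of the 10 genes entered it.

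Markers fitted the label of RPE in the groups, though Rpe65, by which the cells were chosen, was among these markers. RNA of other cell types was present as well. The summed level of 10 RPE markers was 100233 CPM in other control cells, 104255 CPM in other Dox cells, 79313 CPM in the control Serpina3n-high cells and 85347 CPM in the Dox Serpina3n-high cells. The sum of 12 fibroblast markers was 2347, 1747, 2189 and 581 CPM in the same order. The sum of 12 markers of NK or T cells was at most 5.92 CPM, and all 12 were at 0 in the Dox Serpina3n-high cells. Rod markers summed to at most 3.35 CPM. When all kept cells were clustered without the 10 genes, 2738 of the 3156 RPE cells fell in the RPE-like cluster, among them 195 of the 208 Dox Serpina3n-high cells. Serpina3n-high cells also held more UMIs, with medians of 33954 in control and 28244 in Dox against 15957 and 16608 in the other RPE cells, and less Rpe65, at 2544 and 1954 CPM against 5008 and 5499 CPM. The sum of 10 melanocyte markers, several of which pigmented RPE cells also express, was 3153, 2036, 6204 and 3775 CPM in the order of the fibroblast sums. Depth, Rpe65 and the melanocyte markers thus moved with the Serpina3n split in both libraries, and the fibroblast markers in the Dox library. Values at matched depth and in cells with few fibroblast markers are given below, and the part of Rpe65 and of the melanocyte markers in the results was not tested.

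The protein p53 is a transcription factor that is stabilised when DNA is damaged. It switches on genes that halt the cell cycle and genes that can lead to apoptosis, and which of these prevail differs between cell types. On the death side, Bax, Bbc3 and Pmaip1 act at the outer membrane of mitochondria, Fas, Tnfrsf10b and Eda2r are cell surface receptors of the tumour necrosis factor receptor superfamily, and Aen, Phlda3, Perp and Ei24 act elsewhere in the cell.

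Since p53 binds DNA through a pair of short half-sites, the promoters of the genes were searched for that motif. The window ran from 250 bases before to 50 bases after each transcription start, and both strands were searched. RefSeq sequences (build GRCm38.p6) were at hand for 7 of the 10 genes, and those of Pmaip1, Perp and Tnfrsf10b were missing. The p53 half-site was found in 3 of the 7 genes (42.9%), namely Bax, Aen and Ei24, and in 2582 of all 27025 genes with such a window (9.55%). A full site, meaning a pair of half-sites separated by up to 13 bases with up to 2 mismatches in all, was found in 1 of the 7 genes, Bax, and in 667 of all genes (2.47%). The 4 windows below are those of Bax and Aen, which hold a match and were higher in Dox Serpina3n-high cells, of Ei24, which holds a match and was level in the Dox library, and of Phlda3, which holds none and had the largest difference in CPM within the Dox library. Capitals mark the half-site or full-site matches, and each is written 5′ to 3′ on the strand of its gene.
Bax, chr7:45466849-45467148, minus strand: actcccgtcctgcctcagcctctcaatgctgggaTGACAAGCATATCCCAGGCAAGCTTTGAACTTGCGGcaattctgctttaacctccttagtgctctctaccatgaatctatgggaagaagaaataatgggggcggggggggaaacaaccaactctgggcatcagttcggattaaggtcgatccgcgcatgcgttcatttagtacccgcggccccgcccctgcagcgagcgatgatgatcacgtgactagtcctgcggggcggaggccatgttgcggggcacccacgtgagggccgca
Aen, chr7:78895677-78895976, plus strand: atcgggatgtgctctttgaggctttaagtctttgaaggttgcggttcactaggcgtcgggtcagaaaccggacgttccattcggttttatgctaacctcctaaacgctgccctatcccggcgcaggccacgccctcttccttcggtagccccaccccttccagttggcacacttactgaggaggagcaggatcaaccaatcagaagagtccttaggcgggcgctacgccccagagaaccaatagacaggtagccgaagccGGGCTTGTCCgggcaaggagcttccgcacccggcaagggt
Ei24, chr9:36797285-36797584, minus strand: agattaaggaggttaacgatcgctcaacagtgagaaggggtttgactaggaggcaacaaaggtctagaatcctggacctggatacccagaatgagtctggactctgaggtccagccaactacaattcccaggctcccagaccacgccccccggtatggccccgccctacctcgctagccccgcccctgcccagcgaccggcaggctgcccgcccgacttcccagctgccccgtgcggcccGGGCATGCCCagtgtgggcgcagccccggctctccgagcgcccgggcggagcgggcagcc
Phlda3, chr1:135765835-135766134, plus strand: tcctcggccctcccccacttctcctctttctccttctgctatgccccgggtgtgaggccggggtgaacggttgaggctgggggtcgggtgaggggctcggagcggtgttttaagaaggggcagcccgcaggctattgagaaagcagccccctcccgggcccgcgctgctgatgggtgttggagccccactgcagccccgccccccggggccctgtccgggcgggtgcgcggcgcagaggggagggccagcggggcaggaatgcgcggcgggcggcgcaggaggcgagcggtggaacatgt
A match describes the letters of the window and is no evidence of binding, and a window without one says nothing of p53 at that gene.

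Taken by list, the death-side genes were higher in the Dox Serpina3n-high cells than in the other RPE cells of the same library. Between the other RPE cells of both libraries their median ratio was slightly above that of all genes. Levels are compared below as log2 ratios of CPM, and a gene counted as past the fold where it differed by 1.5-fold and had at least 20 UMIs over both groups. Within the Dox library, 7 of the 9 genes with enough UMIs were past 1.5-fold up in Serpina3n-high over other RPE cells and 0 were down, while 5.51% of all genes were past it up and 23.3% down. The median log2 ratio was 1.13 over the 9 genes and -0.20 over all genes tested, so the ratios of that comparison are to be read against a shift of -0.20. Against all control RPE cells, a comparison added after the data were seen, 7 of the 9 genes were past the fold in the Dox Serpina3n-high cells, beside 5.67% of all genes, and the medians were 1.37 and -0.20. Against the 15 control Serpina3n-high cells, 5 of 9 genes were past the fold up and 1 down, beside 19.0% and 14.4% of all genes, with medians of 0.77 and 0.00, and the median of the genes was 0.30 where RPE cells were taken at 3 Rpe65 UMIs. Aen, Phlda3, Ei24, Eda2r and Tnfrsf10b were up, without Bax, and Bbc3 was down. The intervals of Eda2r, Tnfrsf10b and Bbc3 spanned 0. Between the other RPE cells of the libraries, 1 of 10 genes was past the fold up, Phlda3, and 1 down, Pmaip1, beside 2.41% and 6.18% of all genes, with medians of 0.13 and 0.01. Dox was the higher for 8 of the 10, a share that was not counted over all genes. The counting intervals of Phlda3, Aen, Tnfrsf10b, Perp and Ei24 lay above 0. Perp (log2 0.12) and Ei24 (0.14) had similar ratios in fibroblast-like cells, at 0.15 (0.07 to 0.23) and 0.13 (0.05 to 0.21). Between other RPE cells with a fibroblast marker sum under 500 CPM, the median of the genes was 0.40.

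**Figure D1:**
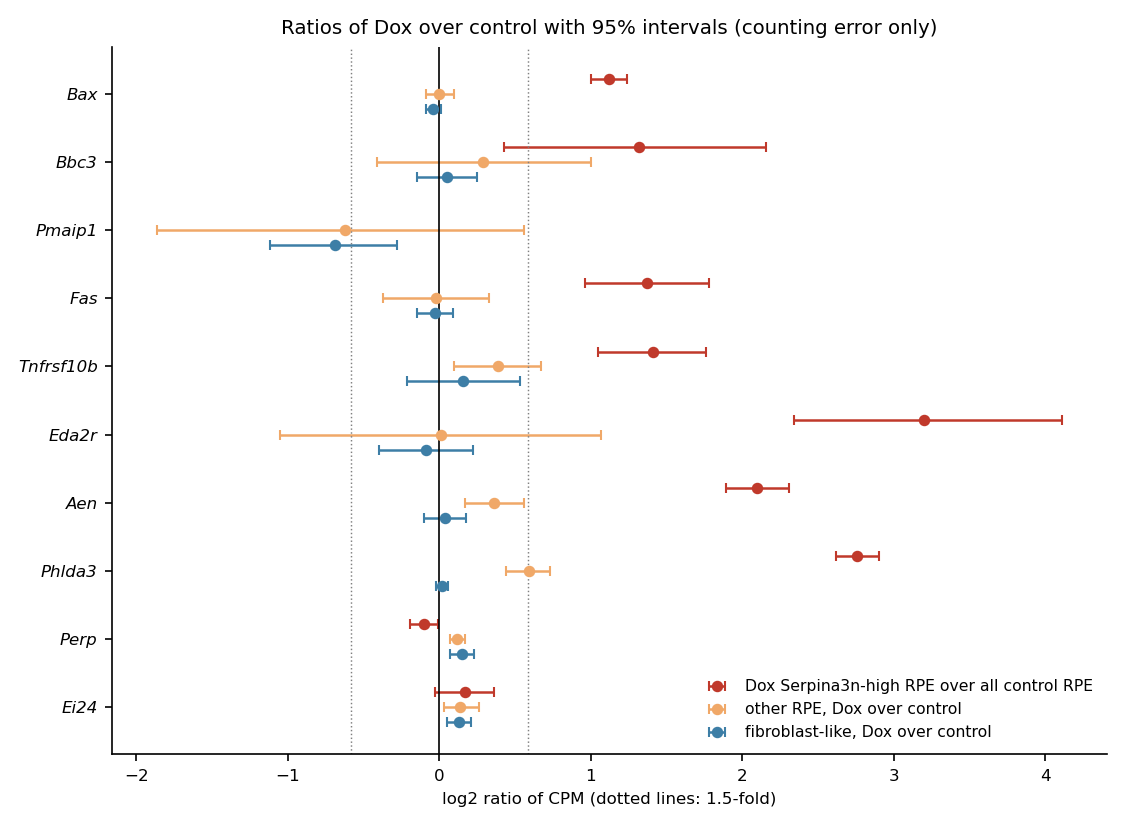
Log2 ratio of CPM (horizontal axis) for the genes with at least 20 UMIs, with exact 95% counting intervals as bars and dotted lines at 1.5-fold, for Dox Serpina3n-high RPE cells over all control RPE cells, other RPE cells of Dox over control, and fibroblast-like cells of Dox over control. In the first comparison Phlda3, Eda2r, Aen, Tnfrsf10b, Fas, Bbc3 and Bax lie past the dotted line and Ei24 and Perp near 0, and the fibroblast-like cells lie near 0 for all genes but Pmaip1.

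Among the mitochondrial genes, Bax had the largest difference in CPM within the Dox library, and Bbc3 had the same log2 ratio of 1.13 on far fewer UMIs. Bax encodes the BCL2-family protein that forms pores in the outer membrane of mitochondria. It measured 70.3 CPM (67.1 to 73.6, 1819 UMIs) in other control cells, 70.5 CPM (67.2 to 73.8, 1806 UMIs) in other Dox cells, 106 CPM (78.2 to 141, 48 UMIs) in the control Serpina3n-high cells and 154 CPM (144 to 165, 857 UMIs) in the Dox Serpina3n-high cells. Both groups of other RPE cells were low and their intervals overlapped, and the Dox Serpina3n-high cells were the highest, with an interval apart from the other 3. The log2 ratio was 1.13 (1.01 to 1.25) within the Dox library, 1.12 (1.0 to 1.24) against all control RPE cells and 0.54 (0.12 to 0.99) against the 15 control Serpina3n-high cells. Of the 208 Dox Serpina3n-high cells, 185 held at least 1 Bax UMI.

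Bbc3 (PUMA) and Pmaip1 (NOXA), the BH3-only proteins that release Bax from its inhibitors, were scarce in RPE cells. Bbc3 measured 1.28 CPM (33 UMIs) in other control cells, 1.56 CPM (40 UMIs) in other Dox cells, 6.63 CPM (1.37 to 19.4, 3 UMIs) in the control Serpina3n-high cells and 3.41 CPM (2.06 to 5.33, 19 UMIs) in the Dox Serpina3n-high cells. The Serpina3n-high cells of both libraries stood above the other RPE cells, the control ones on 3 UMIs. Its log2 ratio was 1.13 (0.26 to 1.95) within the Dox library and 1.32 (0.43 to 2.16) against all control RPE cells, but -0.96 (-2.72 to 1.44) against the control Serpina3n-high cells. Pmaip1 had 17 UMIs in other control cells (0.657 CPM), 11 in other Dox cells (0.429 CPM), 0 in the control Serpina3n-high cells and 1 in the Dox Serpina3n-high cells. A difference in Pmaip1 was not detectable in RPE cells at this depth, and its log2 ratio in other RPE cells of -0.62 had an interval from -1.86 to 0.56.

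**Figure D2:**
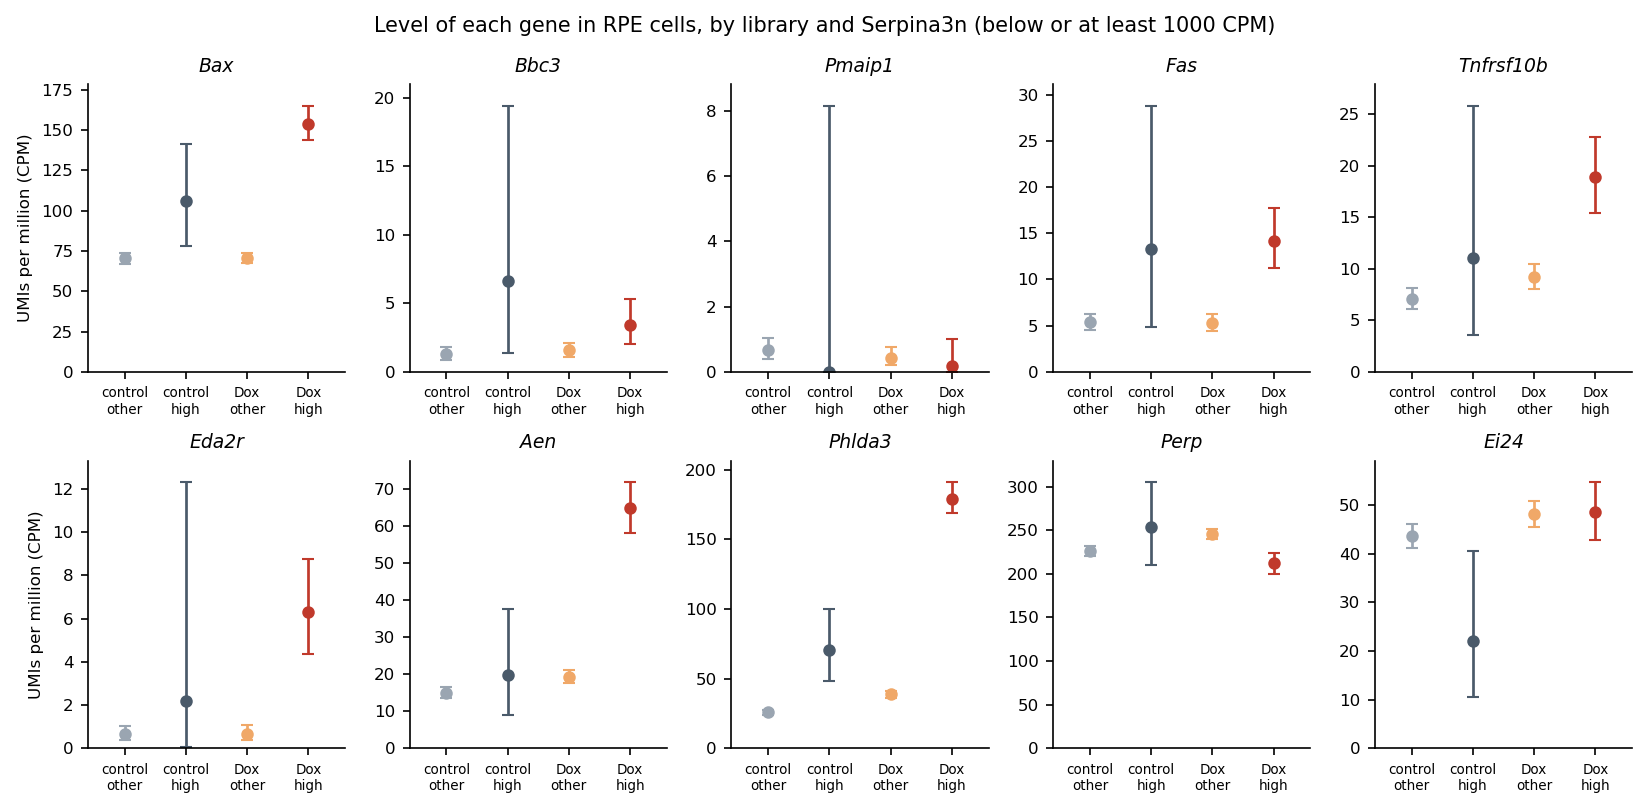
CPM of each of the 10 genes (vertical axes, linear, 1 panel a gene with its own scale) in the 4 groups of RPE cells, with exact 95% Poisson intervals as bars. The Dox Serpina3n-high cells are the highest group for Bax (154 CPM), Phlda3 (179 CPM) and Aen (64.9 CPM), and Perp is at 212 to 254 CPM in each group.

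All 3 receptors were higher in the Dox Serpina3n-high cells than in the other Dox RPE cells. Fas, the receptor of Fas ligand, measured 5.34 CPM (4.48 to 6.30) in other control cells, 5.27 CPM (4.42 to 6.23) in other Dox cells, 13.3 CPM (4.86 to 28.8, 6 UMIs) in the control Serpina3n-high cells and 14.2 CPM (11.2 to 17.7, 79 UMIs) in the Dox Serpina3n-high cells. The interval of the Dox Serpina3n-high cells lay above those of both groups of other RPE cells, while that of the control Serpina3n-high cells, on 6 UMIs, overlapped all 3. The log2 ratio of Fas was 1.43 (1.01 to 1.84) within the Dox library, 1.31 (-0.16 to 2.47) within control and 0.10 between the Serpina3n-high cells of the libraries, and neither of the last 2 was detectable at this depth.

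Tnfrsf10b, the mouse receptor of the death ligand TRAIL, measured 7.04 CPM (6.05 to 8.14) in other control cells and 9.21 CPM (236 UMIs) in other Dox cells. In Serpina3n-high cells it measured 11 CPM (3.59 to 25.8, 5 UMIs) in control and 18.9 CPM (15.4 to 22.8, 105 UMIs) in Dox. The interval of the Dox Serpina3n-high cells lay above those of both groups of other RPE cells and overlapped that of the control Serpina3n-high cells. Its log2 ratio was 1.03 (0.69 to 1.37) within the Dox library, 1.41 (1.05 to 1.76) against all control RPE cells and 0.39 (0.10 to 0.67) between the other RPE cells of the libraries.

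Eda2r, a receptor of the ectodysplasin family of ligands, was rare in RPE cells and had the largest fold. It had 17 UMIs in each group of other RPE cells (0.657 CPM in control, 0.663 CPM in Dox), 1 UMI in the control Serpina3n-high cells and 35 UMIs in the Dox Serpina3n-high cells (6.29 CPM, 4.38 to 8.74). These 35 UMIs came from 28 cells, with at most 2 in a cell. The ratio was 9.48-fold within the Dox library (log2 3.25, 2.37 to 4.17) and 9.19-fold against all control RPE cells. Among cells with few fibroblast markers the log2 ratio within the Dox library was 4.13. Against the single UMI of the control Serpina3n-high cells, the log2 interval ran from -1.06 to 6.85.

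The listed ligands of this receptor family were nearly absent from RPE cells. Fasl, which encodes Fas ligand, had 2 UMIs in the RPE cells of each library and reached 109 CPM in NK or T-like cells, a cluster it helps to define. Tnfsf10, which encodes TRAIL, had 13 and 4 UMIs in RPE cells and measured 95 and 105 CPM in endothelial-like cells. Eda, whose products include the ligand of Eda2r, had 16 UMIs in control and 17 in Dox RPE cells. Tnf, the founding ligand of the family, had 73 and 27 UMIs in RPE cells and measured 664 and 527 CPM in the Ighv1-55-led cluster.

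Phlda3 had the largest difference in CPM among the 10 genes. It encodes a pleckstrin homology domain protein that competes with the survival kinase Akt for membrane lipids. It measured 25.8 CPM (23.8 to 27.8, 666 UMIs) in other control cells, 38.7 CPM (36.3 to 41.2, 992 UMIs) in other Dox cells, 70.7 CPM (48.3 to 99.8, 32 UMIs) in the control Serpina3n-high cells and 179 CPM (169 to 191, 999 UMIs) in the Dox Serpina3n-high cells. No 2 of these 4 intervals overlapped, and the order ran from other control cells up to Dox Serpina3n-high cells. The place of the control Serpina3n-high cells rested on few cells. Of their 32 UMIs, 12 came from the 2 cells at or above 4000 CPM of Serpina3n. The 6 cells at 2000 to 4000 CPM had 2 UMIs (14.2 CPM, 1.71 to 51.1). After thinning to 5000 UMIs, 14.3% (1.78 to 42.8) of the control Serpina3n-high cells and 12.3% of other control cells held a Phlda3 UMI. The Dox Serpina3n-high cells were 4.64-fold above the other Dox cells (log2 2.21, 2.09 to 2.34), 6.77-fold above all control RPE cells (2.76, 2.62 to 2.90) and 1.34 (0.84 to 1.90) above the control Serpina3n-high cells on the log2 scale. Between other RPE cells the fold was 1.5, at the limit used, and the log2 interval ran from 0.44 to 0.73. Phlda3 is also carried by fibroblast-like cells, at 166 CPM in control, and the fibroblast markers of the other RPE cells summed to less in Dox than in control. In RPE cells with under 500 CPM of those markers, a limit added after the data were seen that left 887 control and 987 Dox other cells, the log2 ratio of Phlda3 was 1.06 between the libraries and 2.45 within the Dox library. The log2 ratio between other RPE cells was 0.92 without the cells that scored highest as possible doublets.

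Aen, the p53-induced apoptosis-enhancing nuclease, measured 15 CPM (13.6 to 16.6, 389 UMIs) in other control cells, 19.3 CPM (17.7 to 21.1, 496 UMIs) in other Dox cells, 19.9 CPM (9.09 to 37.7, 9 UMIs) in the control Serpina3n-high cells and 64.9 CPM (58.3 to 71.9, 361 UMIs) in the Dox Serpina3n-high cells. The Dox Serpina3n-high cells stood apart from the other 3 groups, whose highest bound was 37.7 CPM. The log2 ratio was 1.74 (1.55 to 1.94) within the Dox library, 1.71 (0.77 to 2.85) against the control Serpina3n-high cells and 2.10 (1.89 to 2.31) against all control RPE cells.

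Perp and Ei24 did not follow the other genes. Perp, a membrane protein of desmosomes and an effector of p53 in apoptosis, measured 226 CPM (221 to 232) in other control cells, 246 CPM (240.1 to 252) in other Dox cells, 254 CPM (209.7 to 305) in the control Serpina3n-high cells and 212 CPM (199.7 to 224) in the Dox Serpina3n-high cells. The Dox Serpina3n-high cells were the lowest group by a small margin, at a log2 ratio of -0.22 (-0.31 to -0.13) within the Dox library, where the median of all genes was -0.20, and the direction of Perp turned to 0.04 when each cell was thinned. Ei24, a membrane protein of the endoplasmic reticulum, measured 43.6 CPM in other control cells, 48.2 CPM in other Dox cells, 22.1 CPM (10.6 to 40.6, 10 UMIs) in the control Serpina3n-high cells and 48.5 CPM (42.9 to 54.7) in the Dox Serpina3n-high cells. Its level was much the same in 3 groups and lowest in the 15 control Serpina3n-high cells, whose interval lay below the others. The log2 ratio of Ei24 was 0.01 (-0.19 to 0.20) within the Dox library and 1.14 (0.23 to 2.21) against the control Serpina3n-high cells.

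The same split within the control library rested on 15 cells. Of these, 26.7% were among the cells of highest doublet score, as were 22.6% of the other control cells. In Dox the shares were 2.88% of Serpina3n-high and 12.9% of other RPE cells. In the control split, 5 of 8 genes with enough UMIs were past 1.5-fold up in Serpina3n-high cells and 1 was down, beside 12.7% and 20.6% of all genes. Of all genes, 14.2% had no UMI in 1 of the groups. The 5 were Bax, Bbc3, Phlda3, Fas and Tnfrsf10b, and the 1 was Ei24, at a log2 ratio of -0.98. Phlda3 had a log2 ratio of 1.46 (0.90 to 1.97) and Bax of 0.59, while the intervals of Fas and of Tnfrsf10b (0.65, -0.99 to 1.90) spanned 0. Of the 32 Phlda3 UMIs of the control Serpina3n-high cells, 12 came from 2 cells. The ratio of Bax turned to -0.74 (-3.02 to 0.82) when each cell was thinned. Without the cells of highest doublet score, the count up within control was 6 of 8, beside 14.0% of all genes. That between the Serpina3n-high cells of the libraries was 5 of 9, beside 20.7%. Without the Serpina3n split, 4 of 10 genes were past the fold up in all Dox RPE cells over all control RPE cells, beside 2.93% of all genes, and 1 was down, beside 7.44%. The 4 were Phlda3 (log2 1.27), Eda2r (1.28), Aen (0.86) and Tnfrsf10b (0.62), and the 1 was Pmaip1 (-0.75), on 17 and 12 UMIs.

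When RPE cells were ordered by Serpina3n, the Dox cells reached their high level of Phlda3 below the limit of 1000 CPM. In Dox cells under 100 CPM of Serpina3n, Phlda3 measured 27.4 CPM (25.2 to 29.7, 1107 cells), and from 100 to 250 CPM it measured 58.6 CPM (48.8 to 69.9, 184 cells). From 250 to 500 CPM it measured 149.8 CPM (124 to 179.8, 74 cells), from 500 to 1000 CPM 170.3 CPM (57 cells), and above that between 154 and 185 CPM. The intervals of the 5 ranges above 250 CPM overlapped, and the 2 ranges below it were lower. Fibroblast markers in the Dox cells summed to 1394, 5023, 3509 and 1114 CPM over the first 4 ranges and to at most 634 CPM above 1000 CPM, so this RNA rose with Phlda3 from the first range to the second and was lower in each of the next 2 while Phlda3 was higher. Its part in the step was not tested. In control cells Phlda3 measured 22.7 CPM under 100 CPM, 60.7 CPM from 100 to 250 CPM, 65.5 CPM (45.1 to 92.1, 29 cells) from 250 to 500 CPM and 57.9 CPM (37.5 to 85.5, 20 cells) from 500 to 1000 CPM. Under 100 CPM the intervals of the libraries were apart, at 20.8 to 24.7 CPM in control and 25.2 to 29.7 CPM in Dox. They overlapped from 100 to 250 CPM and were apart from 250 to 1000 CPM. Where they were apart, the control cells lay below the Dox cells. Serpina3n itself measured 61.8 CPM in control and 135 CPM in Dox fibroblast-like cells, and the part of free Serpina3n RNA in the ranges was not tested. The fibroblast sums of the control cells were 2214, 3782, 3605 and 4452 CPM in these ranges.

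The values of Bax and Aen rose with each range of Serpina3n up to 1000 CPM in Dox cells, where the intervals of neighbouring ranges overlapped. Bax measured 66.7 CPM under 100 CPM of Serpina3n, then 77.6, 105 and 115 CPM in the next 3 ranges, and 176, 148 and 152 CPM in the ranges from 1000, 2000 and 4000 CPM. Aen measured 16.5, 23.6, 41.7 and 58.2 CPM below 1000 CPM and between 62.8 and 75.0 CPM above it. Perp had no such order, at 249.9 CPM in the lowest range and 202 CPM (187 to 218) in the highest. For Bax and Aen the interval from 500 to 1000 CPM lay above that under 100 CPM. The ranges from 100 to 250 and 250 to 500 CPM held the most fibroblast RNA, at 5023 and 3509 CPM of the markers. Dox fibroblast-like cells held 119 CPM of Bax and 15.6 CPM of Aen, and the part of that RNA was not tested. The median UMIs of the Dox cells were 19327 in the lowest range, 6852 from 250 to 500 CPM and 28618 in the highest, so depth did not run in 1 direction with Serpina3n. Just below the limit, at 800 to 1000 CPM, 13 Dox cells had 236 CPM of Phlda3, 129 CPM of Bax and 66.7 CPM of Aen, and just above it, at 1000 to 1200 CPM, 10 cells had 146, 229 and 82.3 CPM. At the limit on Rpe65, cells with 8 or 9 UMIs had 79.0 CPM of Phlda3 in control and 131 CPM in Dox, and those with 10 or 11 UMIs had 84.8 and 159 CPM. Fibroblast RNA was high at that limit, at 10997 and 14071 CPM of the markers with 8 or 9 UMIs and 9700 and 15766 CPM with 10 or 11, against 31194 and 31063 CPM in fibroblast-like cells, and its part in these levels was not tested.

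**Figure D3:**
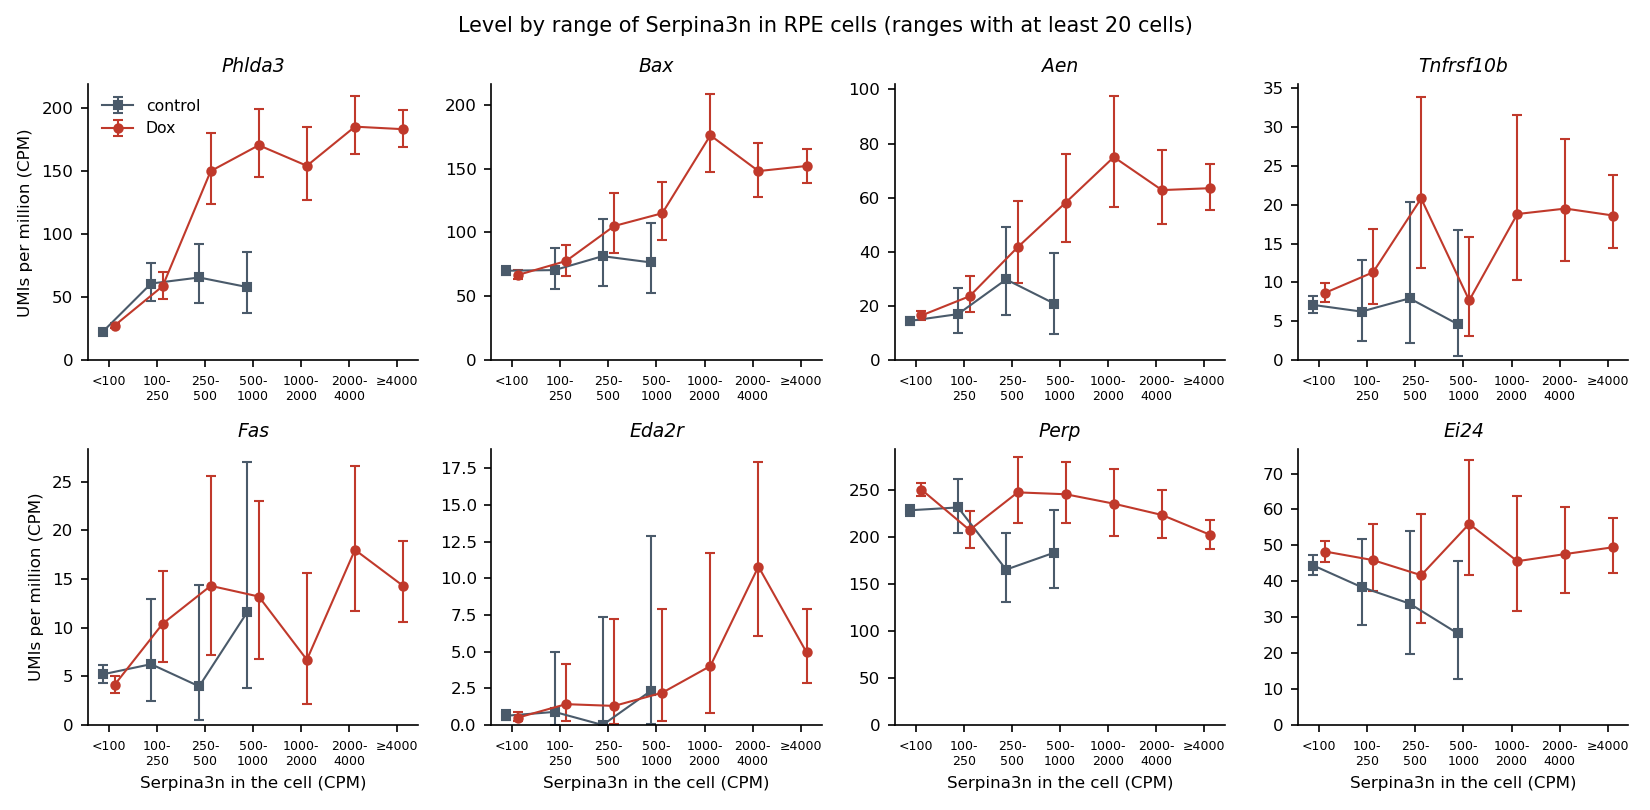
CPM of 8 of the genes (vertical axes, linear) in RPE cells by range of Serpina3n in the cell (horizontal axis, CPM), by library, for ranges of at least 20 cells, with exact 95% Poisson intervals as bars. Phlda3 of the Dox cells goes from 27.4 CPM to 149.8 CPM by the range of 250 to 500 CPM, where the control cells are at 65.5 CPM.

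UMIs of Phlda3 and Bax were spread over most Dox Serpina3n-high cells. Each RPE cell was thinned to 5000 UMIs so that shares could be set side by side, which left 1326 other control, 1233 other Dox and 195 Dox Serpina3n-high cells. At that depth a Phlda3 UMI was found in 12.3%, 14.9% and 54.4% of these cells, a Bax UMI in 28.8%, 29.5% and 54.9%, and an Aen UMI in 8.07%, 9.0% and 24.6%. Fas was found in 3.32%, 2.76% and 9.23%, Tnfrsf10b in 2.64%, 4.22% and 9.23%, and Eda2r in 0.377%, 0.568% and 3.59%. Perp was found in 57.2%, 62.0% and 68.2%, so its share of cells was highest where its CPM was lowest, and no order is read from it. Before thinning, Phlda3 was found in 28.0%, 32.3% and 88.0% of the cells. Of the 14 control Serpina3n-high cells that could be thinned to 5000 UMIs, 14.3% held a Bax UMI and 14.3% a Phlda3 UMI (1.78 to 42.8 for each). No cell type is known to lack these genes. For scale, at 1000 UMIs Phlda3 was found in 17.8% (12.8 to 23.7) of the Dox Serpina3n-high cells. In the Ighv1-55-led cluster, where its CPM was lowest outside the RPE, it was found in 2.36% of control and 1.75% of Dox cells. In fibroblast-like cells it was found in 13.7% of control and 13.5% of Dox cells at that depth.

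The number of the genes found per cell was highest in the Dox Serpina3n-high cells. After thinning, at least 3 of the 10 genes had a UMI in 10.6% (8.96 to 12.3) of the other control cells, 15.2% (13.3 to 17.4) of the other Dox cells and 52.8% (45.6 to 60) of the Dox Serpina3n-high cells. The mean number of the genes per cell was 1.33, 1.48 and 2.52. Such counts rise with the share of each gene alone, and Perp and Ei24 are among the 10 counted. Whether the genes met in a cell more often than their single shares give was not tested. The Dox Serpina3n-high cells stood apart from both groups, and the 14 control Serpina3n-high cells deep enough to be thinned had 2 cells with at least 3 genes.

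**Figure D4:**
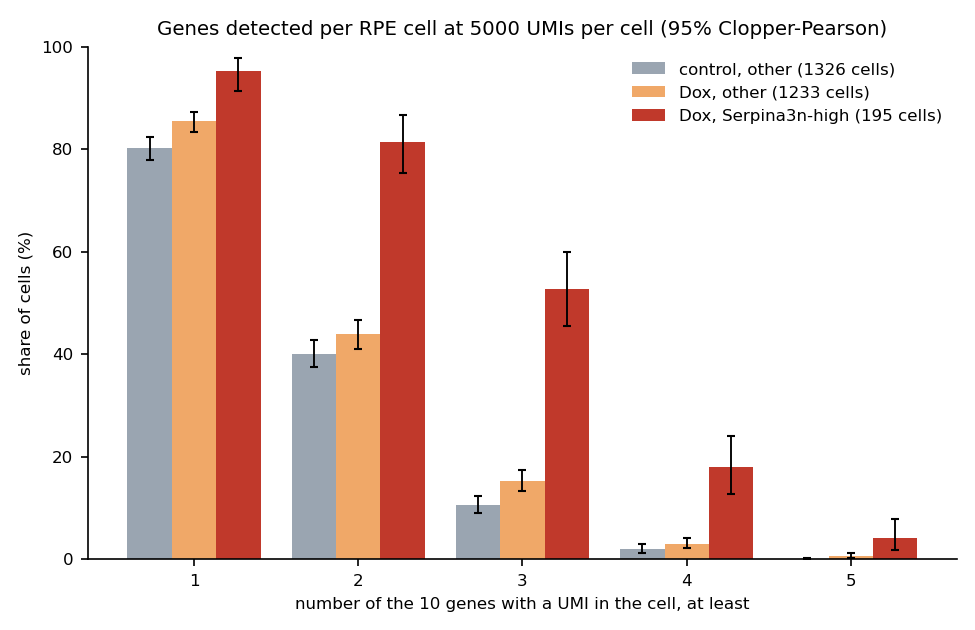
Share of RPE cells (percent) with at least the given number of the 10 genes found after thinning to 5000 UMIs, by group, with Clopper-Pearson 95% intervals as error bars. At least 3 genes were found in 52.8% of the Dox Serpina3n-high cells and in 10.6% and 15.2% of the other control and other Dox cells.

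Phlda3, Bax, Aen and Perp, the genes examined for it, were also set against Cdkn1a, which encodes the cell cycle inhibitor p21, the best known target of p53. Cdkn1a measured 48.6 CPM in the control Serpina3n-high cells and 318 CPM in the Dox ones, a log2 ratio of 2.71, with a ratio of 2.20 within the Dox library. Among Dox RPE cells thinned to 5000 UMIs, 358 held a Cdkn1a UMI, and 43.0% of these held a Phlda3 UMI, against 12.7% of the 1070 cells without Cdkn1a. For Bax the shares were 44.1% and 29.3%, for Aen 19.3% and 8.41%, and for Perp 59.8% and 63.9%. In control RPE cells, 24.7% of the 223 cells with Cdkn1a and 9.85% of the 1117 cells without it held a Phlda3 UMI, with 38.1% and 26.8% for Bax and 8.97% and 7.97% for Aen. Perp was found in 51.1% and 58.7% of these control cells. These shares pool Serpina3n-high and other cells. Within the Dox Serpina3n-high cells, 129 with and 66 without Cdkn1a, the shares were 61.2% and 40.9% for Phlda3, 55.8% and 53% for Bax and 26.4% and 21.2% for Aen, and the intervals overlapped. Within the other Dox cells they were 32.8% and 10.9%, 37.6% and 27.7%, and 15.3% and 7.57%, with intervals that did not overlap. Fibroblast-like cells held 366 CPM of Cdkn1a in control and 326 CPM in Dox, against 47.7 and 69.1 CPM in other RPE cells. In control they also held more Phlda3 (166 against 25.8 CPM) and Bax (123 against 70.3 CPM) and less Perp (45.4 against 226 CPM). The part of fibroblast RNA in these shares was not tested.

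Of the 24 listed p53 targets of cell cycle arrest and feedback, 22 had enough UMIs in Serpina3n-high cells, where 15 were past the fold up and 2 down between the libraries (median log2 1.06, beside 19.0% and 14.4% of all genes). Within the Dox library 10 of 22 were up and 1 down, beside 5.51% and 23.3% of all genes, with a median of 0.51 beside -0.20. The 1 was Gadd45a, named for this count, which is induced by growth arrest and DNA damage, at a log2 ratio of -1.16. Between other RPE cells 0 of 22 were up and 0 down, beside 2.41% and 6.18% of all genes. The median there was 0.21 beside 0.01, and 15 of the 22 were higher in Dox, a share that was not counted over all genes. Cdkn1a had a log2 ratio of 0.54 (0.43 to 0.64) there, under the limit of 1.5-fold. Mdm2, the ubiquitin ligase that degrades p53, measured 19.9 CPM in control and 42.0 CPM in Dox Serpina3n-high cells, and Ccng1, which encodes cyclin G1, 37.5 and 202 CPM. Zmat3, an RNA-binding protein, measured 4.42 CPM (2 UMIs) and 26.9 CPM (150 UMIs), a log2 ratio of 2.61 (0.73 to 5.67). Psrc1, a microtubule-associated protein, measured 2.21 CPM (1 UMI) and 12.9 CPM (72 UMIs), a log2 ratio of 2.55 (0.03 to 7.87). Of 18 listed genes of the general death machinery (caspases, BCL2-family proteins and mitochondrial factors), 1 of 17 with enough UMIs was up within the Dox library and 2 were down, beside 5.51% and 23.3% of all genes, with a median of -0.05 beside -0.20. The 2 were Bmf (-0.86) and Casp9 (-0.94), chosen here after their values were seen. The 1 was Bid, a BH3-only protein, at 1.72 CPM in other and 3.59 CPM in Serpina3n-high Dox cells (log2 1.07, 0.23 to 1.86), and between the Serpina3n-high cells of the libraries its log2 interval ran from -1.94 to 6.08. Bad, another BH3-only protein, measured 90.5 CPM in control and 59.5 CPM in Dox Serpina3n-high cells (log2 -0.61) and 59.3 CPM in other Dox cells. Casp8, the initiator caspase of the death receptors, had a log2 ratio of -0.58 between the Serpina3n-high cells of the libraries. It rested on 9 control UMIs, and its interval (-1.58 to 0.60) spanned 0.

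Of 12 listed survival genes, 1 of 11 was up within the Dox library and 4 were down, beside 5.51% and 23.3% of all genes, with a median of -0.36 beside -0.20. The 1 was Gas6, a ligand of the TAM receptor kinases, with 221 CPM in the control and 435 CPM in the Dox Serpina3n-high cells (log2 0.98, and 1.74 within the Dox library). The 4 were Bcl2 (-0.74), Xiap (-0.61), Birc3 (-0.96) and Bcl2a1b (-1.02, on 3 and 28 UMIs), of which Birc3 and Bcl2a1b are named for this count. Bcl2, which holds Bax in check, had a log2 ratio of -0.60 (-1.60 to 0.59) between the Serpina3n-high cells of the libraries. Xiap, an inhibitor of caspases, had 0.52 (-0.44 to 1.68). Each rested on 9 control UMIs, and both intervals spanned 0. Tnfrsf11b, a soluble decoy receptor that binds TRAIL, measured 18.3 CPM in Dox Serpina3n-high cells, a log2 ratio of 0.87 (0.52 to 1.21) within the Dox library and of -0.12 against the 9 UMIs of the control Serpina3n-high cells.

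Outside the RPE, these genes were close to level between the libraries in fibroblast-like cells, the most numerous type. Of the 10 genes, 0 were past the fold up between the libraries and 1 was down, beside 2.67% and 5.24% of all genes. The 9 others had log2 ratios between -0.09 and 0.16, and the intervals of Perp (0.15, 0.07 to 0.23) and Ei24 (0.13, 0.05 to 0.21) lay above 0. Phlda3 measured 166 CPM in control and 168 CPM in Dox fibroblast-like cells, Bax 123 and 119 CPM, and Fas 22.2 and 21.8 CPM. The 1 that was lower was Pmaip1, at 2.44 CPM (2.06 to 2.87, 146 UMIs) in control and 1.51 CPM (1.18 to 1.89, 74 UMIs) in Dox. The sum of 12 macrophage markers in the same cells was 231 CPM in the control library and 130.1 CPM in the Dox library, and 53697 and 58389 CPM in the Ighv1-55-led cluster, where Pmaip1 was highest, and the part of that RNA in the result was not tested.

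Each gene had its own order over the cell types. Pmaip1 was highest in the Ighv1-55-led cluster, which carries genes of antigen-presenting cells among its leading genes, with 156 CPM in the control and 181 CPM in the Dox library, and the next level was 20.6 CPM in control endothelial-like cells. Fas was highest in endothelial-like cells, at 116 and 129 CPM, followed by the Cxcl10-led cluster at 35.3 and 37.8 CPM. Bbc3 measured 16.5 and 19.4 CPM in the Ighv1-55-led cluster, 16.1 and 21.4 CPM in NK or T-like cells and 13.2 and 19.7 CPM in endothelial-like cells, whose intervals overlapped. Tnfrsf10b was highest in endothelial-like cells too, at 44.6 and 30.7 CPM, with overlapping intervals between the libraries. In Dox the interval of the endothelial-like cells (20.4 to 44.4) overlapped that of the Serpina3n-high RPE cells (18.9 CPM, 15.4 to 22.8). Perp was highest in RPE cells and in smooth muscle-like cells (227 CPM in control and 265 CPM in Dox), which did not differ beyond their intervals in control. Phlda3 was highest in Schwann-like cells, at 211 CPM (150.3 to 289, 58 cells) in control and 262 CPM (177 to 374, 32 cells) in Dox, whose intervals overlapped that of the Dox Serpina3n-high RPE cells. Bax was highest in the Ighv1-55-led cluster (159 and 158 CPM) and endothelial-like cells (157 and 151 CPM), with intervals that overlapped the 154 CPM of the Dox Serpina3n-high RPE cells. Eda2r was at most 5.11 CPM (3.58 to 7.07) in control, in the Cxcl10-led cluster, and in Dox it was highest in the Serpina3n-high RPE cells, with an interval that overlapped that cluster's 3.6 CPM (2.33 to 5.31). The Dox Serpina3n-high RPE cells were thus at the level of other cell types for Bax and Phlda3. Aen was higher there than in any other group of at least 50 cells. The next was the 39.6 CPM (23.8 to 61.8) of Dox cells of the RPE-like cluster with under 10 Rpe65 UMIs, whose interval overlapped. These 72 Dox cells had 4419 CPM of Serpina3n, against 125 CPM in the 87 control cells of that kind. Their median mitochondrial share was 11.3%.

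**Figure D5:**
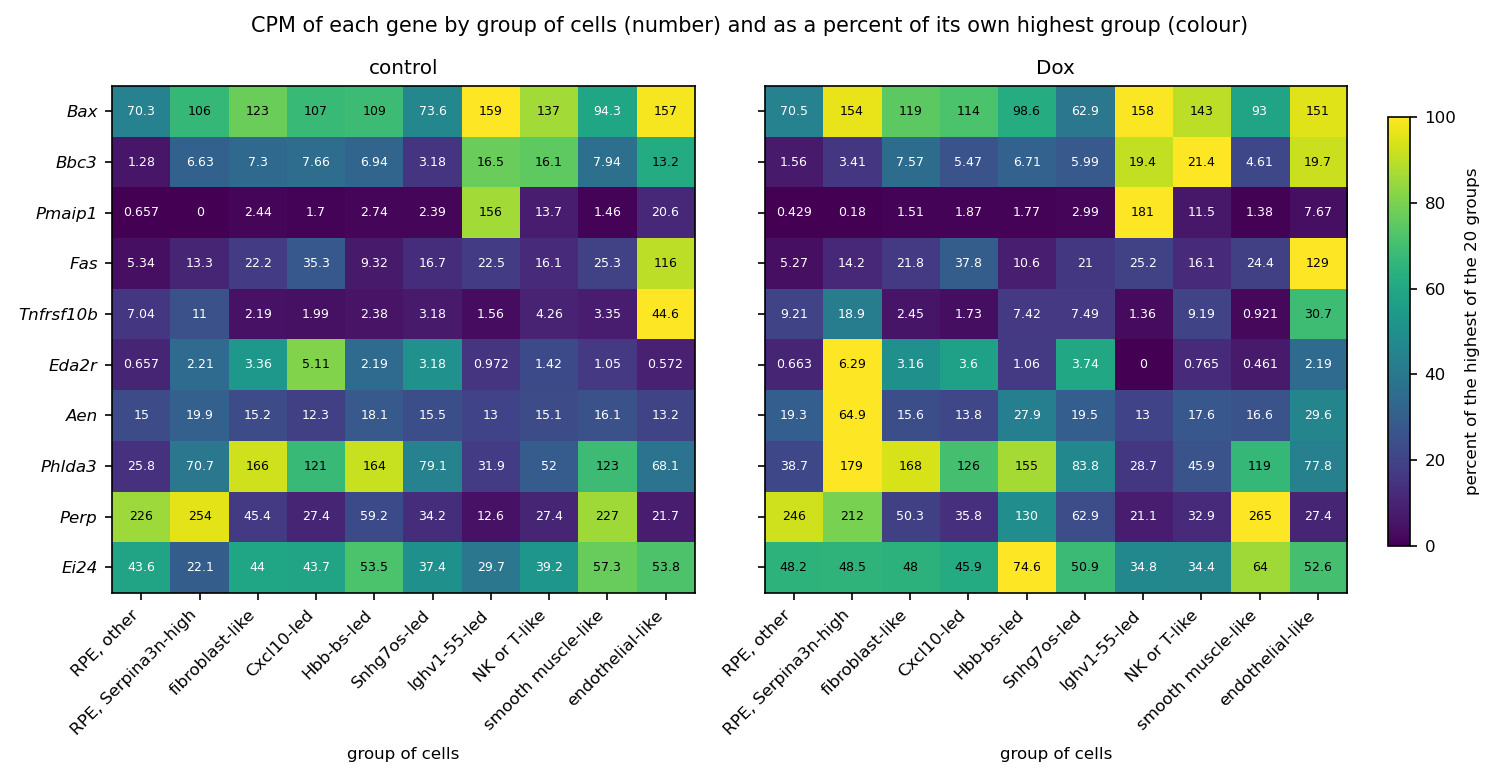
CPM of each of the 10 genes (number in each field) in 10 groups of cells of each library, coloured by the percent of that gene's highest group. Pmaip1 stands out in the Ighv1-55-led cluster (156 and 181 CPM), Fas in endothelial-like cells, and Perp in RPE and smooth muscle-like cells. Tnfrsf10b is highest in endothelial-like cells, with an interval apart from the next group in control only.

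A few differences between the libraries were found in smaller clusters. In the Hbb-bs-led cluster, 3 of 9 genes were past the fold up, beside 8.82% of all genes, and 1 was down (Pmaip1, on 15 and 5 UMIs), beside 10.1%. The 3 were Perp (59.2 to 130.0 CPM), Tnfrsf10b (2.38 to 7.42 CPM, 13 and 21 UMIs) and Aen (18.1 to 27.9 CPM). Rpe65 in the same cells went from 537 to 1425 CPM. In the Snhg7os-led cluster Perp alone of 6 genes was past the fold up (34.2 and 62.9 CPM) and 0 were down, beside 10.5% and 8.52% of all genes, and Rpe65 was 631 and 1042 CPM. In the Ighv1-55-led cluster Perp alone of 8 genes was past it (12.6 and 21.1 CPM) and 0 were down, beside 4.26% and 9.41%, and Rpe65 was 206 and 259 CPM. In these 3 clusters RPE transcripts moved with Perp, and their part in the result was not tested. In endothelial-like cells 1 of 9 genes was up and 1 down, beside 7.66% and 9.45% of all genes. Aen measured 13.2 CPM (23 UMIs) in control and 29.6 CPM (27 UMIs) in Dox, and Pmaip1 20.6 CPM (36 UMIs) and 7.67 CPM (7 UMIs). Rpe65 in the endothelial-like cells was 217 and 407 CPM, and the part of RPE RNA in these values was not tested. In NK or T-like cells 1 of 9 genes was up (Tnfrsf10b, on 9 and 12 UMIs) and 0 were down, beside 6.02% and 11.3%, in smooth muscle-like cells 0 of 7 were up and 1 was down (Bbc3, on 38 and 10 UMIs), beside 5.28% and 6.95%, and in the Cxcl10-led cluster 0 of 10 were past the fold in either direction, beside 3.48% and 4.51%. The intervals of the ratios of Tnfrsf10b and Bbc3 there spanned 0. In cells of the RPE-like cluster with under 10 Rpe65 UMIs, 1 of 5 genes was up and 0 down, beside 13.6% and 18.1% of all genes. That gene was Perp, at 90.5 and 219 CPM (log2 1.27, 0.72 to 1.86). RPE markers summed to 36581 and 48520 CPM in the same cells, and their part in the result was not tested.

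Over the 22 groups of at least 50 cells, the genes whose profile was most like the mean standardised profile of the 10 were Upp1 (Pearson r = 0.72), Gas6 (0.67), Pigk (0.65), Cthrc1 (0.64) and Ptgs1 (0.64), among 6549 genes compared. The 10 genes were themselves unlike each other, with an r with that mean profile from 0.63 for Tnfrsf10b, 0.58 for Bax and for Aen down to 0.01 for Perp and -0.03 for Pmaip1. Groups of the same library are not independent samples, so these values are a description.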

How the data were processed

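The deposited files held UMI counts per gene and cell, which the authors made on mouse build mm10 with Cell Ranger, whose version per the file headers was 4.0.0; the annotation release is not given in the sources used here. The limits of the study's methods were applied: more than 500 UMIs, between 200 and 6000 genes, log10 genes above 0.8 of log10 UMIs, and less than 0.2 of UMIs from mitochondrial genes. They were clustered in Seurat 5.3.0 (R 4.3.3) with SCTransform, 3000 integration features without the 10 genes, 40 components and a resolution of 0.1. Clusters are named "-like" from marker lists and otherwise by their leading gene, by a rule set after the clusters were seen. Doublets were scored with Scrublet (scanpy 1.11.5), which set no threshold of its own in control and called 7.35% of Dox cells, so cells at the expected rates of 16.1% and 12.3% were left out only as an alternative.

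Counts were summed per group of cells and divided by the group's UMIs (CPM). Intervals are exact Poisson for CPM, exact conditional binomial for ratios and Clopper-Pearson for shares, at 95%, and cover counting error only. The intervals were tried on simulated counts, drawn with counting error only around the pooled levels of each comparison. Such counts hold no spread between cells, animals or libraries, so they cannot show how the intervals cover it. In them, 25.9% of unchanged genes were past 1.5-fold in either direction between the Serpina3n-high cells of the libraries. That share was 7.79% for Dox Serpina3n-high over all control RPE cells and 3.87% between other RPE cells. With 1 library per condition the count tests were not run. The 10 genes, the other gene lists, the split and the comparisons were chosen with earlier results of these data known. All 10 genes are named, with the 3 genes of each other list with the largest ratio in Serpina3n-high cells, Cdkn1a, Mdm2 and Ccng1, and the 5 genes of most similar profile (log2 of CPM plus 5, over genes of at least 50 CPM in 1 group); genes outside this rule are named only to account for a count. Promoters came from RefSeq (GRCm38.p6).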

Additional observations from a re-analysis of the deposited data

Results flagged for a closer look

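Pmaip1 (NOXA) went in opposite directions between the libraries in different cell types. Its log2 ratio of Dox over control was -0.69 in fibroblast-like cells (146 and 74 UMIs in control and Dox) and -1.42 in endothelial-like cells (36 and 7 UMIs), against 0.22 in the Ighv1-55-led cluster (800 and 530 UMIs), and each counting interval excluded 0. It was flagged because the directions were opposite. The sum of macrophage markers, which the Ighv1-55-led cluster carries at 53697 and 58389 CPM, went from 231 to 130.1 CPM in fibroblast-like cells and from 365 to 1582 CPM in endothelial-like cells, and its part in the result was not tested. The difference between the cell types was not tested, since each type has 1 sample per library. The Ighv1-55-led cluster held 156 CPM in control and 181 CPM in Dox, the highest levels of Pmaip1 in these libraries.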

How the results depend on the processing

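Within the Dox library, the number of the 10 genes past 1.5-fold up in Serpina3n-high cells stayed between 5 and 7 under every alternative run. Of the 10, 7 to 10 were tested, beside 2.64% to 18.9% of all genes past the limit. Between other RPE cells, the 1 of 10 genes of the main count became 0 of 10 with a mitochondrial share under 0.1, with no filter on cells, with at least 3 Rpe65 UMIs, with the split at 500 CPM, with centring on the median of all genes and at 2-fold. The share of all genes past the limit there was 0.668% to 3.52%. The count was 2 of 8 with thinned cells, beside 3.74%, and 2 of 8 with a fibroblast marker sum under 500 CPM, beside 2.67%. Between all RPE cells, the 4 of 10 genes became 1 of 10 with at least 3 Rpe65 UMIs, beside 3.3% of all genes. At 2-fold they became 2 of 10, beside 0.992%. Between Serpina3n-high cells, the 5 of 9 genes, beside 19.0% of all genes, became 3 of 6 with thinned cells, beside 22.6%. Within control, the 5 of 8 genes became 3 of 8 with the split at 500 or 2000 CPM, beside 11.2% and 17.0% of all genes. They were also 3 of 8 with the mean of the cells' own CPM, beside 11.9%, and at 2-fold, beside 6.01%. With a fibroblast marker sum under 500 CPM they were 2 of 7, beside 15.6%. The share of Dox Serpina3n-high cells with at least 3 of the genes was 52.8% after thinning and 90.9% with all UMIs. Directions turned for Pmaip1 with the mean of the cells' own CPM (log2 0.51 in other and 0.38 in all RPE cells) and with thinned cells (0.52 and 0.32), for Bax within control with thinned cells (-0.74), for Bbc3 in Serpina3n-high cells against all control RPE cells (1.32), and for Perp, which was not past the fold, within the Dox library with thinned cells (0.04). The median over the genes in other RPE cells ran from 0.07 with at least 20 Rpe65 UMIs to 0.40 with a fibroblast marker sum under 500 CPM, and in Serpina3n-high cells from 0.30 with at least 3 Rpe65 UMIs to 1.37 against all control RPE cells. The cause was not tested. Of the other values of single genes, 66 moved outside the counting interval of the main value and 898 stayed inside it. For fibroblast-like cells the alternative with no filter on cells was not run, since clusters exist only for kept cells. No paired analysis was possible because each condition has 1 library. Comparisons with the control Serpina3n-high cells rest on 15 cells, where 1 Eda2r UMI and 3 Bbc3 UMIs set the ratios, and 1 pooled library per condition limits each difference to counting error, so differences between animals, injections and libraries cannot be told apart from the treatment.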
